A study of Equus caballus with 13 samples.

Results

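The genes described here belong to families best known for regulating pre-mRNA splicing: serine/arginine-rich (SR) proteins, heterogeneous nuclear ribonucleoproteins (hnRNPs), polypyrimidine tract-binding (PTB) proteins, TRA2 proteins, numbered RNA-binding motif (RBM) proteins and the CLK kinases. The members were found by matching name patterns to gene symbols, so some numbered RBM genes with other known roles are among them, and 69 such genes were listed in both of the authors' tables of RNA kinetics, out of 10974 genes listed in both. The 69 comprised 10 SR protein genes, 2 TRA2 genes, 4 CLK genes, 3 PTB genes, 20 hnRNP genes and 30 RBM genes. Of 77 protein-coding RefSeq symbols of the horse (assembly TB-T2T) that fit the same name patterns, these were 69, and the others were not analysed here. The cells were wild-type horse chondrocytes, the cells that make cartilage matrix, cultured for 2 days and labelled for 4 h with 4-thiouridine (4sU), which is built into newly made RNA. Old female and young female animals gave 5 samples each and young male animals gave 3. Every sample was 4sU treated, and ages in years were not analysed here.

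SR proteins bind exonic sequences through RNA recognition motifs and recruit the splicing machinery through an arginine- and serine-rich domain. The CLK kinases phosphorylate that domain and so release SR proteins from nuclear speckles. Many hnRNPs and PTB proteins act in the opposite sense and repress splice sites, although either class can do both depending on where it binds. Several SR and TRA2 genes limit their own output through poison exons, alternative exons with a stop codon that send the transcript to nonsense-mediated decay, and CLK1 and CLK4 transcripts are known for retained introns.

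Each table held 1 value of synthesis rate (arbitrary units) and 1 of half-life (read as hours) per gene and group, so no spread between animals could be given and no difference was tested. The product of synthesis rate and half-life divided by ln 2 is called the implied level, and the log2 ratio of the level is the sum of the other log2 ratios. The scale of the synthesis rates is not given in the sources used here and may depend on transcript length. Synthesis rates and levels are thus compared between groups for 1 gene and not between genes. Exceptions are the marker sums and an alternative filter by synthesis rate. The young female samples entered both tables. Their half-lives in the 2 tables differed by under 5% for 65 of the 69 genes (88.0% of all shared genes), the exceptions being CLK4 (6.25% longer in the sex table), RBM45 (12.4%), RBM15 (17.4%) and RBM43 (22.6%). Young female half-lives below are those of the age table, and each ratio uses the young female value of its own table. Of 11 chondrocyte markers 9 were listed, among them COL2A1 and ACAN. Of 8 fibroblastic markers all were listed, with implied levels higher in 7 of 8 in male cells and in 0 of 8 in old cells. Their summed level, in arbitrary units, was 160040 for young females and 389887 for males in the sex table. In the age table it was 167650 for young females and 80534 for old females. The sums for the 9 chondrocyte markers were 1717830 and 4257230 by sex, with 8 of 9 higher in male cells, and 1799260 and 1635240 by age, with 3 of 9 higher in old cells. These sums add genes of unlike scale and rest in part on half-lives over 24 h, which were 4 of 9 in young female and 6 of 9 in male cells of the sex table. The median log2 level ratios of the chondrocyte markers were 1.48 by sex and −0.48 by age. Of the macrophage and endothelial markers, CD14 and VWF alone were listed. The part of these marker differences in the results below was not tested. Batch and group cannot be told apart: 12 batch labels covered the 13 samples, and the 1 batch with 2 samples held a young female and a young male sample whose separate values are not used here.

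The classes differed in how long their mRNAs lasted. In young female cells the median half-life was 1.23 h for the CLK kinases, 1.60 h for the RBM genes, 2.89 h for the SR protein genes, 3.27 h for the TRA2 genes, 4.36 h for the PTB genes and 7.96 h for the hnRNPs. The median of all 11056 genes in that table was 3.64 h, and that of the 69 genes was 2.83 h. All 4 CLK genes, 25 of 30 RBM genes and 6 of 10 SR genes were below the all-gene median, but only 3 of 20 hnRNPs were. The same counts were obtained in old cells, where the all-gene median was 3.43 h. In male cells, with an all-gene median of 4.63 h, the counts were 4 of 4, 26 of 30, 7 of 10 and 3 of 20. Class membership accounted for 49.9% of the variance of log2 half-life over the 69 genes in young female cells. The order of the genes by half-life was nearly the same in every group, with a Spearman correlation over the 69 genes of 0.983 between young female and old cells and 0.979 between young female and male cells. Across all genes the corresponding values were 0.980 and 0.969, and both comparisons share the young female samples.

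**Figure D1:**
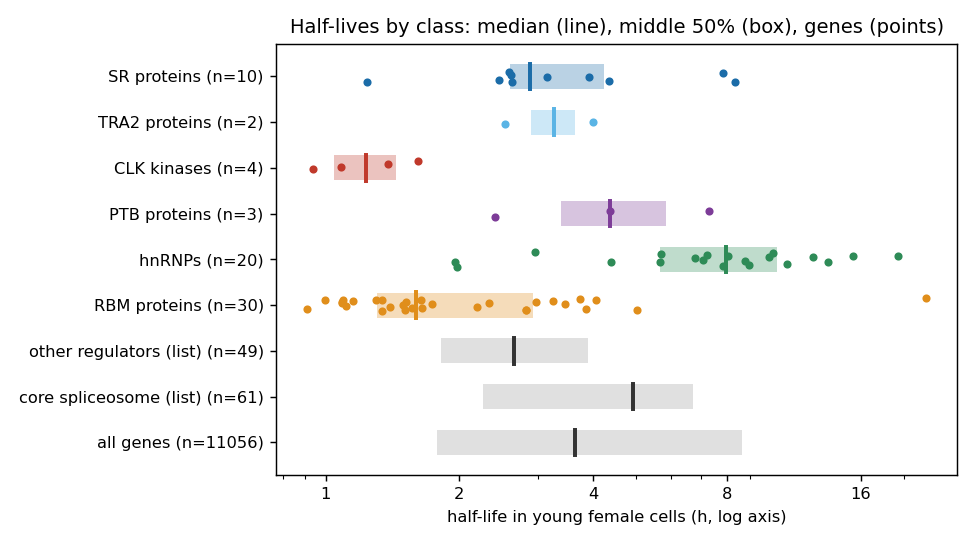
Half-lives in young female cells (x axis, hours, log scale) for the genes of each class (points), with the class median (line) and middle 50% of genes (box); 2 lists of other splicing genes and all genes are shown without points. The CLK median of 1.23 h and the hnRNP median of 7.96 h lie on either side of the all-gene median of 3.64 h.

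The CLK kinase mRNAs were short-lived, with percentiles among all genes in young female cells from 4.47 for CLK1 to 21.2 for CLK3. CLK1 had a half-life of 0.935 h in young female, 0.888 h in old and 1.05 h in male cells. CLK4, its close paralog, had 1.08 h in young female, 0.894 h in old and 1.07 h in male cells. The half-lives of CLK2 were 1.38, 1.20 and 1.21 h in the same order. For CLK3 they were 1.61, 1.33 and 1.92 h. CLK3 was the longest of the 4 in each group. CLK1 and CLK4 lay within 5% of each other in old and male cells, so no order is read between them there. The half-lives of CLK1 and CLK4 under 1 h lie below the range of 1 to 24 h taken as resolvable with 4 h of labelling.

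Within the SR proteins half-life spanned 1.24 to 8.32 h. SRSF4 was the shortest in all groups, with 1.24 h in young female, 1.11 h in old and 1.19 h in male cells. Several others lay close together in young female cells: SRSF6 at 2.46 h, SRSF1, the prototype of the family, at 2.59 h, SRSF5 at 2.61 h, SRSF7 at 2.63 h and SRSF11 at 3.14 h. SRSF1, SRSF5 and SRSF7 differed from each other by less than 5%, so no order is read among them. SRSF3, the smallest of the classical SR proteins, had 4.35 h in young female, 3.94 h in old and 5.43 h in male cells. SRSF10, which acts as a splicing repressor when dephosphorylated, had 3.91, 2.47 and 3.54 h. SRSF12, a relative of SRSF10, had 7.85, 6.37 and 5.40 h. SRSF9 was the longest-lived, with 8.32, 8.80 and 11.6 h. SRSF12 alone among the SR genes had its shortest half-life in male cells. TRA2B and TRA2A, SR-like activators of weak exons, had half-lives of 2.53 and 4.00 h in young female, 2.52 and 3.89 h in old and 3.15 and 4.48 h in male cells, with TRA2B the shorter in each group.

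The hnRNPs were long-lived with 3 exceptions. The longest half-lives were those of HNRNPM (19.4 h in young female, 18.6 h in old and 23.9 h in male cells), HNRNPK, which binds C-rich RNA (15.4, 13.7 and 20.6 h), and HNRNPH1, which binds G-rich tracts (13.5, 12.3 and 18.7 h). The shortest were those of HNRNPA0 (1.95, 1.74 and 1.83 h), HNRNPF (1.98, 1.76 and 2.27 h) and HNRNPLL (2.96, 2.46 and 3.12 h). Each of the 3 short-lived genes belongs to a family with long-lived members, a comparison chosen after the values were seen. HNRNPA1, HNRNPA3 and HNRNPA2B1 had half-lives of 8.96, 11.0 and 12.5 h in young female cells, so that the ratio of the longest to the shortest in the hnRNP A family was 6.40 in young female, 6.16 in old and 9.39 in male cells. HNRNPH3 and HNRNPH2, relatives of HNRNPF, had 7.85 and 10.2 h, and the ratio of HNRNPH1 to HNRNPF was 6.85, 6.96 and 8.24 in the same groups. HNRNPL had 8.77 h against 2.96 h for HNRNPLL. By contrast HNRNPU, HNRNPUL1 and HNRNPUL2 lay between 5.67 and 8.06 h. HNRNPC, which binds U-rich tracts, had 7.23 h, and HNRNPAB and HNRNPR had 4.38 and 5.65 h. Processed copies of hnRNP genes are common in mammalian genomes, and how reads shared with such copies were counted is not given in the sources used here. The PTB family was graded in the same way: PTBP1, the widely expressed form, had 7.30, 6.63 and 7.91 h in young female, old and male cells. PTBP2, the form best known from neurons, had 4.36, 5.68 and 5.96 h. PTBP3 had 2.41, 1.80 and 4.23 h, and was the shortest of the 3 in each group.

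Most RBM mRNAs were short-lived, and 25 of 30 had half-lives of 0.909 to 3.45 h in young female cells. The 3 with the lowest listed values in young female cells of the age table were RBM12B (0.909 h in young female, 0.817 h in old and 0.916 h in male cells), RBM15, which recruits the m6A methyltransferase to RNA (0.996, 0.686 and 0.916 h), and its paralog RBM15B (1.09, 0.0303 and 0.718 h). RBM27, RBM7 and RBM22 lay within 5% of RBM15B there, and RBM15 was at 1.17 h in the sex table, so no order is read among them. The longest-lived was RBM3, a cold-inducible RNA-binding protein, with 22.5 h in young female, 23.3 h in old and 31.6 h in male cells. RBM42 (5.03, 5.21 and 5.95 h) and RBM28, a nucleolar factor of ribosome assembly (4.05, 4.58 and 5.97 h), came next in young female cells. Among the genes in between, named after their values were seen, were RBM22 and RBM25, factors of the spliceosome and of splice site choice, with 1.11 and 1.65 h in young female cells, RBM14, a paraspeckle protein, with 2.33 h, and RBM17 (SPF45) with 2.97 h. The half-life of RBM3 was thus more than 4 times that of RBM42 in young female cells, and 92.0% of all genes had shorter half-lives than RBM3 there.

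**Figure D2:**
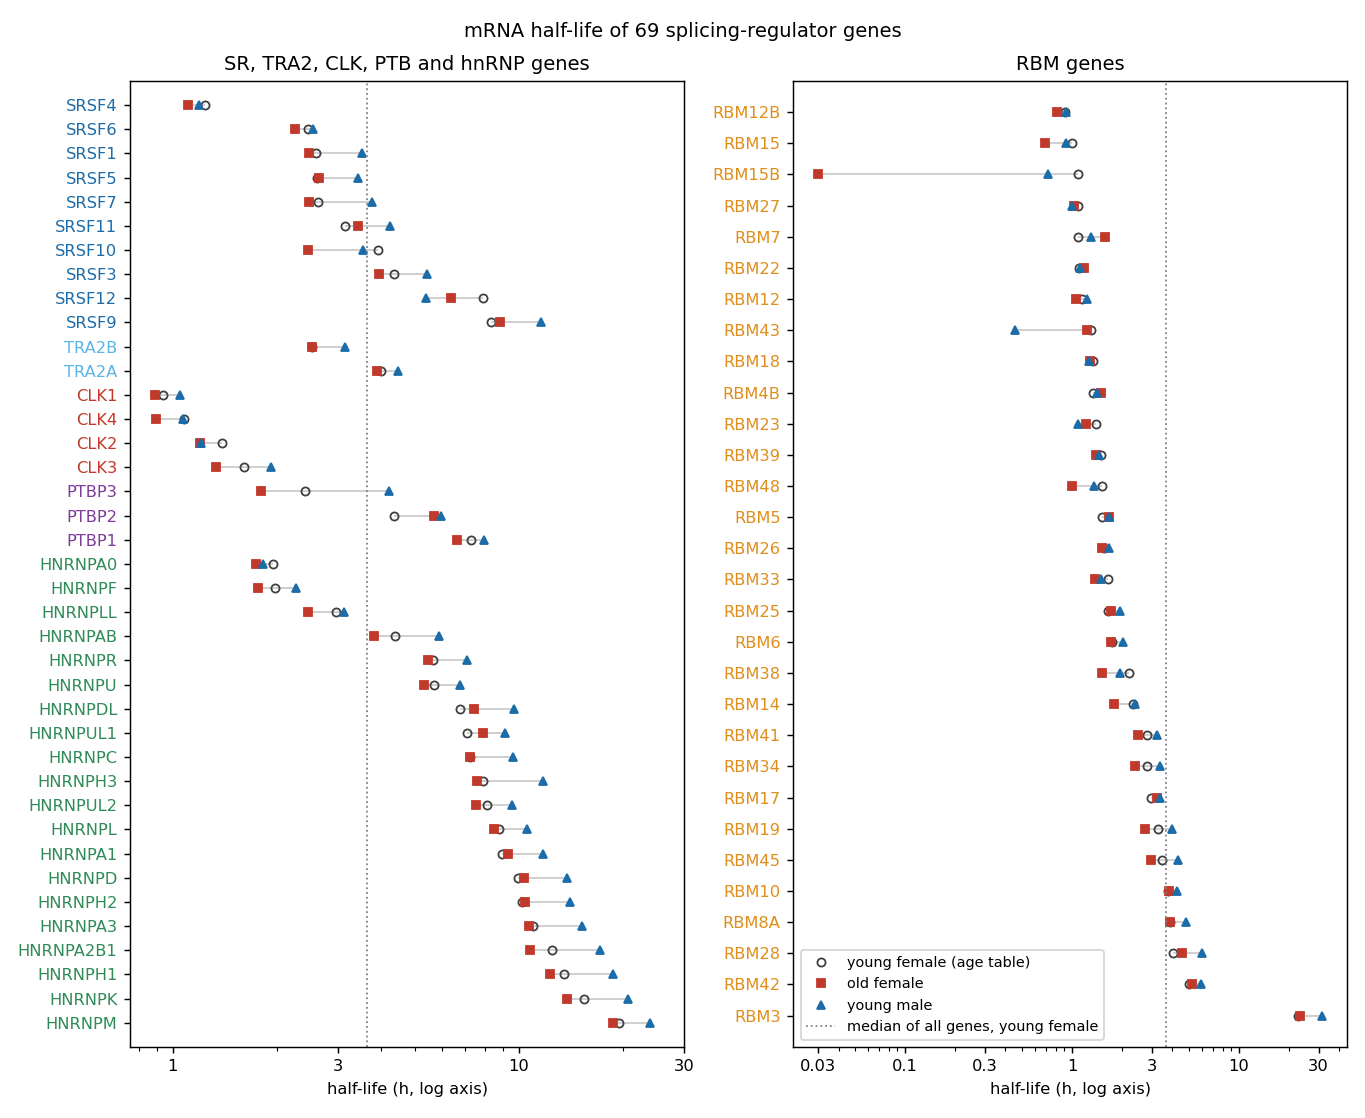
Half-life of each of the 69 genes (x axis, hours, log scale; the 2 panels have different ranges) in young female (open circles, age table), old female (squares) and young male cells (triangles), each point being the authors' group value; the dotted line is the all-gene median in young female cells. Male values lie to the right of young female values for 19 of 20 hnRNPs (77.3% of all genes), and RBM15B in old cells (0.0303 h) and RBM43 in male cells (0.455 h) stand apart from their other groups.

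The comparison of old with young female cells asked how age affects the kinetics of these transcripts. Half-lives were slightly shorter in old cells, by the same median as all genes, and synthesis rates were higher for more of these genes than among all genes. The median log2 ratio of half-life was −0.08 for the 69 genes and −0.08 for all genes, with 20 of the 69 longer in old cells (29.0%, against 36.5% of all genes). The median log2 ratio of synthesis rate was 0.14, against 0.08 for all genes, and 55 of the 69 were higher (79.7%, against 60.2%). Synthesis rates were also higher for 43 of 49 further splicing regulators (87.8%) and 41 of 61 core spliceosome genes (67.2%), both described below. For the 69 genes the remaining ratio was as follows. The median log2 ratio of implied level was 0.08, against 0.00, with 51 of the 69 higher (73.9%, against 50.7%). With the young female values of the sex table these medians were 0.23 for synthesis rate and 0.15 for level. The level ratios had a narrow spread. The middle 50% of the 69 spanned 0.15 log2 units, where the middle 50% of all genes spanned 0.39. The 2 sets were not matched for synthesis rate or half-life range. In young female cells 3 of the 69 half-lives were under 1 h and 0 over 24 h, against 658 and 816 of all 11056. The part of this in the spreads and in the 2-fold counts below was not tested. A narrow spread was not particular to the 69 genes. For the further splicing regulators described below the middle 50% lay between −0.015 and 0.188, and for the core spliceosome genes between −0.126 and 0.066.

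Few of these genes were past 2-fold in old cells. For half-life it was 1 of 69, or 1.45%, where 3.53% of all genes were past 2-fold in either direction. For synthesis rate it was also 1 of 69 (background 7.52%), and for level 0 of 69 (background 4.12%). The 1 gene was RBM15B in both cases, with a half-life of 0.0303 h against 1.09 h (log2 ratio −5.17) and a synthesis rate of 91473 against 2408 (log2 ratio 5.25). Its implied level was 1.06-fold that of young female cells, so the 2 ratios were opposite in sign and nearly equal in size. The half-life of RBM15B in old cells was 1 of 129 values under 0.1 h in that column, and it lies far below the range of 1 to 24 h. Within that range 0 of 64 genes were past 2-fold in half-life or synthesis rate. The share of all genes past 2-fold within it was not counted.

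At 1.5-fold, half-lives were shorter in old cells for 3 of 69 genes (background 6.31%) and longer for 0 (background 3.29%). Besides RBM15B these were SRSF10, with 2.47 h in old against 3.91 h in young female cells (log2 ratio −0.67), and RBM48, a component of the minor spliceosome, with 1.01 against 1.51 h (−0.59). Relative to the all-gene median 2 of 69 passed 1.5-fold, RBM15B as shorter and RBM7 as longer (0.615), against 1025 of all 11056 genes. SRSF10 (−0.581) and RBM48 (−0.502) then no longer passed. Synthesis rates were at least 1.5-fold higher for 6 of 69 (background 11.6%) and at least 1.5-fold lower for 0 (background 6.64%). The 6 were RBM15B, RBM15 (2134 against 1266, log2 ratio 0.75), RBM48 (306 against 190, 0.69), SRSF10 (321 against 201, 0.68), RBM38, a p53 target that stabilises CDKN1A mRNA (103 against 65.4, 0.66), and SRSF12 (42.0 against 27.6, 0.60). With the sex table as the source of young female values, RBM15 also passed 2-fold in synthesis rate. The level ratios of these 6 were between 0.01 for SRSF10 and 0.30 for SRSF12. Relative to the all-gene median 4 of the 6 still passed 1.5-fold in synthesis rate, and RBM38 (0.579) and SRSF12 (0.522) did not. Among all 11056 genes 1949 passed after that step, in either direction.

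PTBP2 was the 1 gene of the 69 with an implied level at least 1.5-fold higher in old cells (background 6.12%), and 0 of 69 were at least 1.5-fold lower (background 5.63%). Its half-life was 5.68 h against 4.36 h and its synthesis rate 384 against 274, so both were higher in old cells, and the level was 1.82-fold higher (log2 ratio 0.86). The young female half-life of PTBP2 differed by 0.147% between tables. SRSF5 had the next largest level ratio, 0.45, with a synthesis rate of 1631 against 1210 and half-lives of 2.64 and 2.61 h. The longest relative half-life in old cells was that of RBM7, a subunit of the nuclear exosome targeting complex, with 1.58 h against 1.09 h (log2 ratio 0.53) and a synthesis rate of 317 against 395 (−0.32).

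By class, the half-lives of all 4 CLK kinases were shorter in old cells, at log2 ratios from −0.28 for CLK3 to −0.07 for CLK1. All 4 had higher synthesis rates, from 0.17 for CLK1 to 0.48 for CLK2. Most genes went the same way: 63.1% of all genes had shorter half-lives and 60.2% had higher synthesis rates. Of the 4 kinases CLK1 alone departed from these directions under centring. Its half-life ratio was 0.01 relative to the median of all genes, and its synthesis ratio −0.02 relative to its half-life decile. Of the 10 SR genes 9 had a higher synthesis rate in old cells (90%, against 60.2% of all genes), the exception being SRSF9 (−0.13). For the hnRNPs the log2 half-life ratios lay between −0.26 for HNRNPLL and 0.15 for HNRNPUL1, and the synthesis ratios between −0.07 for HNRNPUL1 and 0.53 for HNRNPLL. HNRNPA2B1 had the next lowest half-life ratio (−0.22), HNRNPDL the next highest (0.13) and HNRNPK the next highest synthesis ratio (0.28). The TRA2B values were nearly equal in old and young female cells, with log2 ratios of −0.01 for half-life and −0.01 for synthesis rate. Among the RBM genes the largest negative synthesis ratio after RBM7 was that of RBM8A, a core subunit of the exon junction complex (−0.19), and RBM28 followed RBM7 in half-life (0.18). The lowest level ratio of all 69 in old cells was that of RBM19 (−0.33), named after its value was seen, with half-lives of 2.73 h in old and 3.26 h in young female cells.

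**Figure D3:**
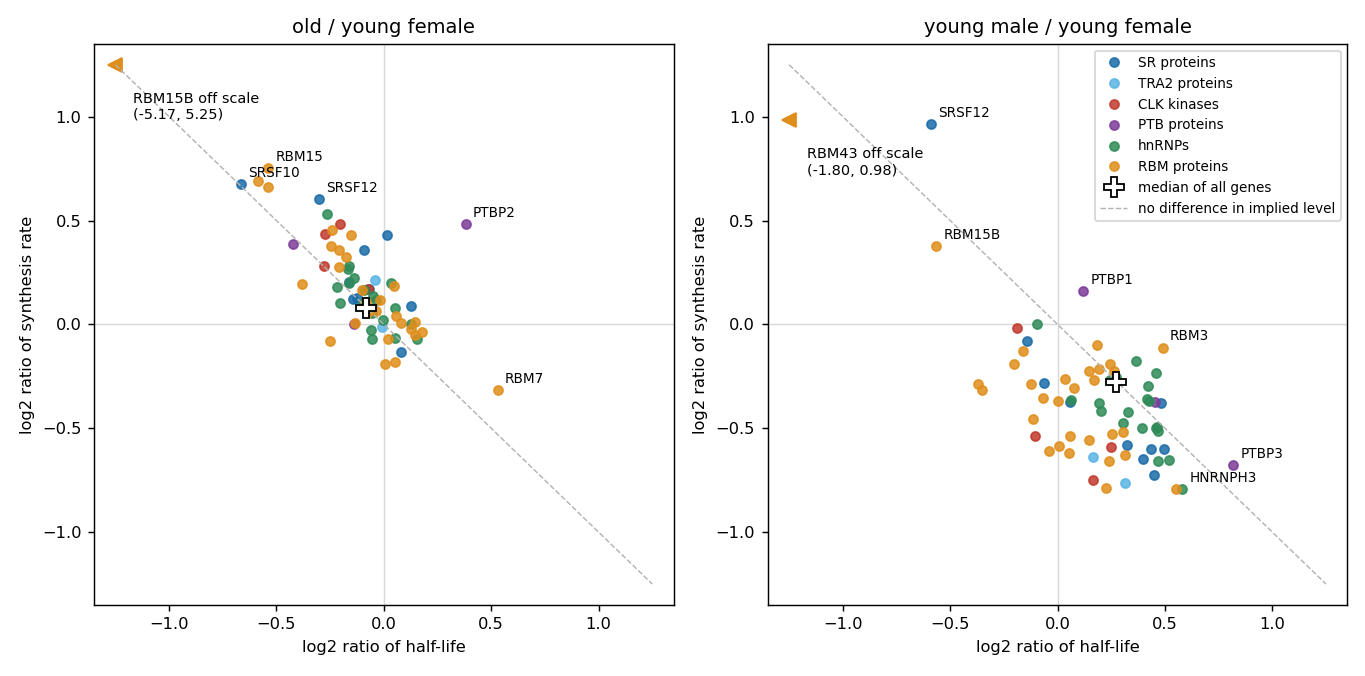
Log2 ratio of synthesis rate (y axis) against log2 ratio of half-life (x axis) for the 69 genes, old over young female (left) and young male over young female (right); triangles at the edge mark genes beyond the axis, with their values, and the cross is the median of all genes. On the dashed diagonal the implied level is equal in both groups; most points at left lie close to it, and most at right lie below it.

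The comparison of young male with young female cells asked how sex affects the same transcripts. Half-lives of all genes were shifted by a median log2 ratio of 0.27 and synthesis rates by −0.28, so values are also given relative to that shift. The 69 genes had a median log2 half-life ratio of 0.22, with 52 longer in male cells (75.4%, against 77.3% of all genes), and −0.05 relative to the shift, with 27 above it. Their median log2 synthesis ratio was −0.38, and 64 of 69 were lower (92.8%, against 71.1% of all genes). This was not particular to the 69 genes. Synthesis rates were also lower for 45 of 48 further splicing regulators (93.8%) and 53 of 61 core spliceosome genes (86.9%), described below. Relative to the shift the median of the 69 was −0.10, with 48 lower and 21 higher. Their median log2 level ratio was −0.21, against 0.01 for all genes, with 54 of 69 lower in male cells (78.3%, against 49.5%).

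No gene of the 69 was past 2-fold in synthesis rate (0 of 69, background 12.2%) or in implied level (0 of 69, background 4.61%), and 1 of 69 was past it in half-life (background 7.58%). That gene was RBM43, with a half-life of 0.455 h in male against 1.59 h in young female cells of the same table (log2 ratio −1.80). Its synthesis rate was 236 against 119 (0.98, just under 2-fold) and its level was 0.565-fold (−0.82). The young female half-life of RBM43 was 1.30 h in the other table, the largest difference between tables among the 69 genes, and its male half-life lies below 1 h. SRSF12 also had a higher synthesis rate and a shorter half-life in male cells, with a synthesis rate of 49.7 against 25.5 (0.96) and a half-life of 5.40 against 8.12 h (−0.59). After subtraction of the all-gene median both RBM43 and SRSF12 were past 2-fold in synthesis rate. The share of all genes past 2-fold was not counted after that step. SRSF12 and RBM38 were the 2 genes outside the upper 75% of genes by synthesis rate. That cut ranks genes on a scale that may depend on transcript length, and it served only as an alternative filter.

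At 1.5-fold, 18 of 69 genes had lower synthesis rates in male cells (26.1%, against a background of 26.1%), and 2 had higher ones, RBM43 and SRSF12 (background 7.38%). The share of lower calls was thus that of all genes. Relative to the all-gene shift 0 of 69 were at least 1.5-fold lower (background 12.2%), the lowest being HNRNPH3 at −0.52, and 3 were higher, RBM15B, RBM43 and SRSF12 (background 14.2%). The 18 included 4 of 10 SR genes, both TRA2 genes, CLK1 and CLK3, PTBP3, 3 of 20 hnRNPs and 6 of 30 RBM genes. The lowest ratios were those of HNRNPH3 (375 against 650, log2 ratio −0.79), RBM28 (216 against 373, −0.79) and RBM6, a splicing regulator linked to apoptosis (581 against 1002, −0.79). TRA2B (1099 against 1867, −0.76), CLK1 (1348 against 2264, −0.75) and SRSF1 (1809 against 2987, −0.72) followed. At the other end PTBP1 had a higher synthesis rate in male cells, 2357 against 2111 (0.16), and HNRNPA0 an equal one, 3189 against 3179 (0.00). RBM15B, at 3061 against 2359, was also higher (0.38).

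Half-lives were at least 1.5-fold longer in male cells for 1 of 69 genes, where 20.7% of all genes were, and at least 1.5-fold shorter for 2 of 69 (background 3.75%), RBM43 and SRSF12. Relative to the all-gene shift 0 of 69 were longer by that factor (background 8.3%) and 5 were shorter (background 7.41%), RBM15, RBM15B and RBM23 joining the other 2. The 1 longer before centring was PTBP3, with 4.23 against 2.40 h (log2 ratio 0.82) and a synthesis rate of 164 against 262 (−0.68), so that its level was 1.10-fold. HNRNPH3, with 11.7 against 7.84 h (0.58), and RBM28, with 5.97 against 4.07 h (0.55), were just under that threshold. Of the 20 hnRNPs 19 had longer half-lives in male cells (median log2 ratio 0.40), HNRNPA0 being the exception (−0.09). HNRNPLL had the next lowest hnRNP ratio (0.06), and HNRNPDL the next highest after HNRNPH3 (0.52). Among the RBM genes RBM3 followed RBM28 (0.49), and RBM15B followed RBM43 at the lower end (−0.56). The SR genes had a median of 0.36, the RBM genes 0.07 and the CLK kinases 0.03.

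These class differences ran alongside a trend of all genes. With all shared genes ordered by their half-life in old cells, a group used in neither term of the ratio, the male half-life exceeded the young female one by a median of −0.01 log2 units in the lowest decile and 0.51 in the highest. After subtraction of the median of all genes in the same decile, the medians were −0.01 for the hnRNPs, 0.05 for the SR genes, 0.04 for the CLK kinases and −0.10 for the RBM genes, and 27 of the 69 genes were above 0. Of the hnRNPs, 8 of 20 were then above 0, where 19 of 20 had been before. Centring on the median of all genes alone left 14 of 20 hnRNPs above 0. It left 6 of 10 SR genes, 4 of 30 RBM genes and 0 of 4 CLK kinases above 0. Within deciles the counts for these 3 classes were 5, 9 and 2. PTBP3 (0.67) stayed the gene furthest above its decile, and RBM43 (−1.88) and SRSF12 (−0.95) those furthest below.

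**Figure D4:**
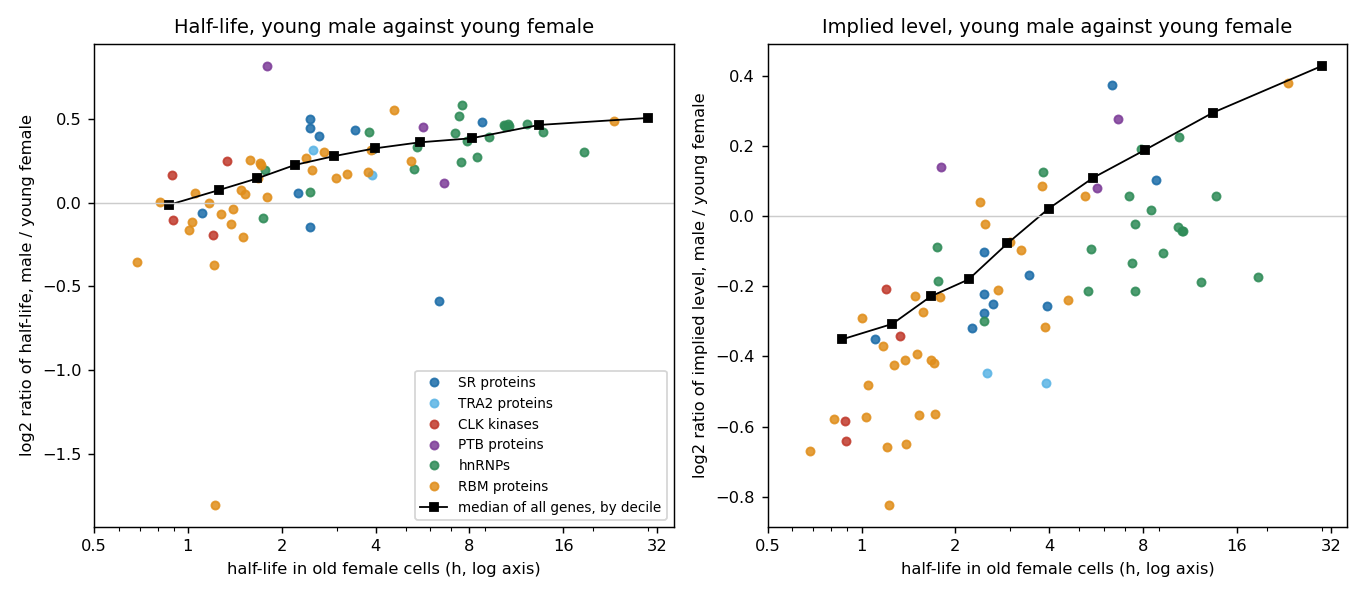
Log2 ratio of half-life (left) and of implied level (right), young male over young female, against the half-life in old female cells (x axis, hours, log scale) for 68 of the 69 genes (RBM15B, at 0.0303 h on the x axis, is not drawn); black squares are medians of all genes in each decile of old-cell half-life. In the left panel most points follow the line, and in the right panel 53 of the 69 genes are below the median of their decile.

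Implied levels of most of the 69 genes were lower in male cells. All 4 CLK kinases were lower (3 of 4 relative to their half-life decile, where CLK2 was 0.10 higher), with log2 level ratios of −0.64 for CLK4, −0.58 for CLK1, −0.34 for CLK3 and −0.21 for CLK2. Both TRA2 genes were lower (TRA2A −0.47, TRA2B −0.45), as were 26 of 30 RBM genes (median −0.34) and 8 of 10 SR genes (median −0.24). Of the 20 hnRNPs 14 were lower, with a median of −0.07 and a range from −0.30 for HNRNPLL to 0.22 for HNRNPH2. The 3 PTB genes were higher (PTBP1 0.28, PTBP3 0.14, PTBP2 0.08), although PTBP2 was at −0.03 relative to its decile. SRSF12 was also higher (0.37), and so was RBM3 (0.38), which was at −0.05 relative to its decile. At 1.5-fold 5 of 69 genes were lower (background 8.7%) and 0 were higher (background 9.63%). The 5 were RBM43, RBM15 (−0.67), RBM23 (−0.66), RBM39, a U2AF-related splicing coactivator (−0.65), and CLK4. None of these 5 calls held relative to the half-life decile, where HNRNPM (−0.60) was the 1 gene of 69 at least 1.5-fold lower (background 4.36%) and 0 were higher (background 6.31%). HNRNPM, at 18.6 h in old cells, lay in the top decile, whose median was 29.9 h and whose median level ratio was 0.43, against 0.29 in the decile below it. The span of its RefSeq gene model overlaps 5 other protein-coding genes, with strand and exons not compared.

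Relative to all genes of the same half-life decile the level ratios of the 69 genes had a median of −0.13, with 53 lower and 16 higher. The class medians were then −0.38 for the TRA2 genes (2 of 2 lower), −0.22 for the hnRNPs (16 of 20), −0.13 for the CLK kinases (3 of 4), −0.12 for the RBM genes (23 of 30), −0.09 for the SR genes (8 of 10) and 0.17 for the PTB genes (1 of 3). The lowest hnRNP by this measure was HNRNPM (−0.60), followed by HNRNPH1 (−0.48). The hnRNP median was thus lower with this step, and the CLK, RBM and SR medians closer to 0. The number of lower genes was 54 of 69 without it and 53 with it. Male cells were also those with the higher fibroblastic and chondrocyte marker sums given above, and the part of that difference in the lower levels was not tested.

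**Figure D5:**
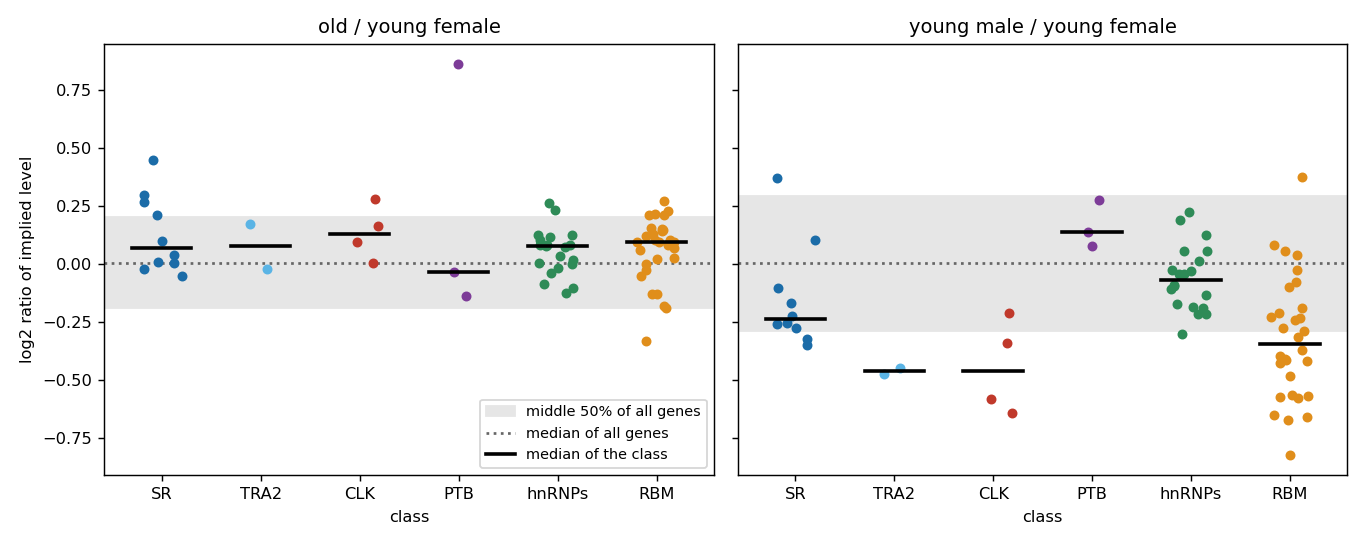
Log2 ratio of implied level (y axis) for each gene by class, old over young female (left) and young male over young female (right), with class medians (black lines), the median of all genes (dotted) and the middle 50% of all genes (grey band). The RBM, CLK and TRA2 medians in male cells (−0.34, −0.46 and −0.46) lie below the grey band, and all class medians in old cells lie within it.

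Other splicing genes were taken from lists drawn up by name. Of a list of 57 further splicing regulators 49 were listed in the age table and 48 in the sex table, and of 68 core spliceosome genes 61 were listed in each. The regulators had a median half-life of 2.65 h in young female cells and the core spliceosome genes 4.93 h. In old cells the median log2 level ratio was 0.08 for the further regulators (35 of 49 higher), as for the 69 genes, and 0.00 for the core spliceosome (31 of 61 higher). In male cells it was −0.15 (38 of 48 lower) and −0.06 (35 of 61 lower), and within half-life deciles −0.08 (33 of 48 lower) and −0.12 (42 of 61 lower). Before the decile step the lower share was 79.2% among the further regulators and 57.4% among the core genes, where 49.5% of all genes were lower. Few listed genes were past 2-fold. Among the further regulators it was 1 of 49 in synthesis rate and in level by age (backgrounds 7.52% and 4.12%) and 1 of 48 in half-life and in synthesis rate by sex (7.58% and 12.2%). Among the core genes it was 1 of 61 in synthesis rate by sex. NOVA1, a splicing factor best known from neurons, had a synthesis rate of 360 in old against 132 in young female cells (log2 ratio 1.45) and a level ratio of 1.22. MBNL3, a muscleblind-family regulator, had a half-life of 13.0 h in male against 5.08 h in young female cells (1.36) and a synthesis rate of 7.40 against 23.7 (−1.68). PRPF4, a protein of the U4/U6 snRNP, had a synthesis rate of 227 in male against 621 in young female cells (−1.45) and a half-life of 1.94 against 1.22 h. The half-life and synthesis ratios of MBNL3 and PRPF4 were opposite in sign, and their level ratios were −0.32 and −0.78.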

How the data were processed

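The study measured RNA kinetics in 13 samples of 4sU-labelled horse chondrocytes; RNA was alkylated with iodoacetamide for 15 min, and libraries were poly(A)-selected and strand-specific, per the labels' protocols. The authors deposited 2 tables of group estimates, synthesis rate and half-life, per the file headers. The submitters' processing notes name cutadapt 4.5, STAR 2.5.3 and the build EquCab3.0. The kinetic model, the handling of replicates and of reads shared between gene copies, and units are not given in the sources used here. Half-lives were read as hours because the labelling time is given in hours. The highest listed value, 69.3, is a ceiling that equals a decay rate of 0.01 per h. Of the markers, CNMD and FAP lay at it in every group, and COMP, MATN3 and COL1A2 in male cells. The levels of these genes there, and the marker sums, rest on capped values. Depth per sample is unknown, and no test, interval or SD was possible. In RefSeq, the spans of 12 of the 69 genes overlap that of another protein-coding gene. Strand and exons were not compared, so whether their values hold reads of the other gene is unknown.

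From the tables, log2 ratios within each table and the implied level were computed in Python 3.11.15 with numpy 2.4.6 and pandas 2.3.3. No pseudocount or filter was used. The computation alone was checked on simulated data, and no difference between groups was tested. A gene was called past a threshold at 2-fold or, as an alternative, 1.5-fold. Levels assume constant RNA during labelling. All SR, TRA2, CLK and PTB genes are named; hnRNP and RBM genes are named for the 3 shortest and 3 longest half-lives, for passing 2-fold, or as the 2 most extreme in each direction, and others after their values were seen. The genes and lists were chosen with earlier results of these data known.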

Additional observations from a re-analysis of the deposited data

How the results depend on the processing

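Without replicate values, a median was taken as moved beyond 0.05 log2 units and a count beyond 1.5 times; 55 alternative values stayed within these limits and 26 moved. No paired analysis was possible because the tables hold 1 value per gene and group, and for the same reason leaving out a replicate was not possible. At 1.5-fold 3 genes passed in half-life, 6 in synthesis rate and 1 in level by age, and 3, 20 and 5 by sex. Counts at 1.5-fold after centring were also chosen after seeing the data. By sex, relative to all genes, they were 5 in half-life, 3 in synthesis rate and 6 in level. Among all 11249 genes they were 1768, 2965 and 2065. Within deciles 1 gene passed in level (backgrounds 4.36% lower and 6.31% higher). By age, relative to all genes, the counts were 2 in half-life, 4 in synthesis rate and 1 in level. Among all 11056 genes they were 1025, 1949 and 1293. With half-lives of 1 to 24 h, 0 genes were past 2-fold in half-life or synthesis rate by age (64 genes left) and 0 in half-life by sex (63 left), and the young female median half-life was 2.96 h. Centring on all genes gave median log2 ratios of 0.00091 for half-life and 0.056 for synthesis rate by age, and −0.049 and −0.099 by sex, where 2 genes passed in synthesis rate. Centring within half-life deciles, chosen after seeing the data, gave 0.014 and 0.060 by age, and −0.031, −0.145 and −0.133 (level) by sex. Again 2 genes were past 2-fold in synthesis rate by sex. The shares of all genes past 2-fold were not counted after either centring or within 1 to 24 h. The centred half-life medians lay within 0.05 of 0, so no direction is read from them. With the other table's young female values the medians were 0.23 for synthesis rate and 0.15 for level by age, with 2 genes past 2-fold in synthesis rate, and −0.46 and −0.28 by sex; the tables' young female levels are offset from each other. Genes listed in both tables and the upper 75% by synthesis rate moved no value. Half-lives under 1 h or over 24 h are poorly resolved by 4 h of labelling, which touches CLK1, CLK4, RBM12B, RBM15, RBM15B, RBM43 and RBM3.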

Other observations

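Of these genes 2 pairs are neighbours among protein-coding genes in the RefSeq table. RBM5 and RBM6, both splicing regulators linked to apoptosis, had half-lives of 1.51 and 1.74 h in young female cells, 1.67 and 1.72 h in old cells and 1.67 and 2.04 h in male cells. The log2 synthesis ratios of old to young female cells were 0.01 for RBM5 and 0.12 for RBM6, and those of male to young female cells −0.55 and −0.79. HNRNPDL and HNRNPD, both binders of AU-rich RNA, had half-lives of 6.78 and 9.97 h in young female, 7.40 and 10.3 h in old and 9.69 and 13.7 h in male cells, with log2 synthesis ratios of 0.00 and −0.07 in old cells and −0.65 and −0.49 in male cells.

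RBM3, RBM10, RBM41 and HNRNPH2 are X-linked in mammals, and this grouping was made after their values were seen. Their log2 level ratios of male to young female cells were 0.38 for RBM3, 0.08 for RBM10, −0.02 for RBM41 and 0.22 for HNRNPH2, so 3 of the 4 were higher in male cells. The other 65 genes had a median of −0.22, with 12 higher and 53 lower. Relative to all genes of the same half-life decile the contrast was smaller: RBM3 was at −0.05 and HNRNPH2 at −0.07, so 2 of the 4 were higher (median 0.0068), against 14 of the other 65 (median −0.17). In old against young female cells, which do not differ in sex, the same 4 genes had a median of 0.19 (3 of 4 higher) and the other 65 a median of 0.08 (48 higher). Whether the position on the X chromosome bears on these values was not tested.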
